A study of Homo sapiens with 12 samples.

Results

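The 10 genes described here belong to the NF-kB pathway: the subunit genes NFKB1, NFKB2, RELA and RELB, the feedback inhibitors NFKBIA and TNFAIP3, and the target chemokines CCL20, CXCL1, CXCL2 and CCL2. They were chosen by name, and all 10 were found among the 26485 genes of the count table. RNA was sequenced from HepG2, an established human hepatoma line, in 4 stable lines with 3 wells each. Z2, Z5 and Z9 had received the CRISPR constructs sgZHX3-2, sgZHX3-5 and sgZHX3-9 and carry the genotype label ZHX3-depleted. Empty had received the empty construct and carries the genotype label WT. All 4 lines went through lipofection and blasticidin selection, and no cytokine or other inflammatory stimulus is named in the labels. Whether a line is 1 clone or a pool is not given in the sources used here. The wells, a to c, are parallel cultures of 1 line, so p-values measure the spread between wells and not between independently made lines, and with 1 Empty line the construct and the history of that line cannot be told apart.

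NF-kB is a family of dimeric transcription factors. In resting cells the dimers are held in the cytoplasm by I-kappa-B proteins. Signals from TNF, interleukin-1 or Toll-like receptors activate the I-kappa-B kinase complex, the inhibitor is degraded, and the freed dimers enter the nucleus and bind kappa-B motifs in target genes. Among those targets are the pathway's own inhibitors, which close a feedback loop, and chemokines, small secreted proteins that attract leukocytes. In the liver, hepatocytes answer this pathway with acute-phase proteins, complement components and chemokines.

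Library totals ranged from 50864744 to 65428204 counts, and 15289 genes passed the filter on low counts and were tested with edgeR's quasi-likelihood test. All 12 of 12 hepatocyte and hepatoma markers were tested, and 7 were called for the mean of the 3 lines, 3 higher and 4 lower, against 25.6% of all genes (1 and 2 without Empty a, 0 and 2 with wells summed per line). ALB, the albumin gene, averaged 11657 CPM in Z2, Z5 and Z9 and 17529 CPM in Empty, and CEBPA, a hepatocyte transcription factor, 76.5 and 114.5 CPM (edgeR adjusted p = 3.1e-07 and 0.00574). SERPINA1, the alpha-1-antitrypsin gene, averaged 10582 CPM in the labelled lines and 8730 CPM in Empty (edgeR adjusted p = 0.00420, and 0.0522 without Empty a), and FGB, a fibrinogen chain gene, 317 and 263 CPM (0.00038). No labelled well of these 4 genes overlapped an Empty well. ZHX3 mRNA averaged 34.5 ± 0.620 CPM in Z2, 32.9 ± 0.505 in Z5 and 34.3 ± 0.713 in Z9, against 33.0 ± 0.421 CPM in Empty (CPM are counts scaled to the library's total; SD, n = 3 wells each), and did not pass the test for the mean of the 3 lines (edgeR adjusted p = 0.544). A gene-level count does not check a small insertion or deletion or the protein, so Z2, Z5 and Z9 are called by their labels. Of 10 leukocyte markers, PTPRC had at most 2 counts in a well, CD3E at most 1 and TYROBP 0. Without LYZ, which HepG2 expresses at 1545 to 2098 CPM, the leukocyte markers summed to 53.3 to 78.2 CPM in Z2, 54.0 to 67.6 in Z5 and 49.7 to 66.5 in Z9, against 46.1 to 56.6 CPM in Empty wells. Most of that sum was CD68, at 42.5 to 72.3 CPM over the 12 wells. FCER1G had 2.23 to 3.63 CPM and CD14 0.682 to 1.75. Of the 5 leukocyte markers tested, 0 passed for the mean of the 3 lines (edgeR; 2 at an unadjusted p under 0.05, CD68 and FCER1G, and 0 by DESeq2). Among 10 stromal and endothelial markers, COL1A2 had at most 1 count in a well, and DCN and KDR had 0. Others were expressed in every well: PDGFRB at 21.1 to 32.5 CPM, ACTA2 at 20.5 to 24.2 and PECAM1 at 4.53 to 6.64. In that list 1 of 6 tested genes rose, the endothelial cadherin gene CDH5, with 1.54 CPM on average in Z2, Z5 and Z9 and 0.485 CPM in Empty. COL1A1 fell for the mean of the lines, with 0.486 CPM in the labelled wells and 0.756 CPM in Empty, a call lost without Z2 c, Z5 a, Z5 c, Z9 a, Z9 b or Empty a (edgeR adjusted p between 0.0588 and 0.390). Its line means were 0.537 CPM in Z2, 0.640 in Z5 and 0.281 in Z9. Of the single lines Z9 alone was called for COL1A1 (edgeR adjusted p = 0.00622, and 0.128 without all 4 a wells). Without Z2 a, 2 leukocyte markers passed (CD68 and FCER1G), and without Z9 a or without all 4 a wells, 1 (CD68, edgeR adjusted p = 0.0414 and 0.00473). In single lines FCER1G rose in Z2 (0.51, edgeR adjusted p = 0.0154, lost without Z2 b, Z2 c or Empty a) and LYZ fell in Z9 (-0.20, edgeR adjusted p = 0.0222). The part of these markers in the results below was not tested.

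The members' promoters are shown first, because kappa-B motifs are the sequences through which NF-kB reaches its targets. The RefSeq promoter table (GRCh38.p14) held 12 starts for 8 of the 10 members. RELB and CCL2 were not matched. The 120 bases before 1 start each of 7 members follow, 5′ to 3′ on the gene's strand. They are the starts whose 250 upstream bases hold a match to the kappa-B consensus, 1 start per gene (NFKB2 had 2 such starts), with matches on either strand in capitals and overlapping matches run together. The RefSeq starts of CCL20, TNFAIP3, NFKB1, NFKB2 and CXCL2 lie inside the spans that GENCODE gives these genes.
CCL20, chr2:227813722-227813841, plus strand: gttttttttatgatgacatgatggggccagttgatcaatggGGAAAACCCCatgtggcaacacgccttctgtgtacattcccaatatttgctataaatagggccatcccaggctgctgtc
TNFAIP3, chr6:137867139-137867258, plus strand: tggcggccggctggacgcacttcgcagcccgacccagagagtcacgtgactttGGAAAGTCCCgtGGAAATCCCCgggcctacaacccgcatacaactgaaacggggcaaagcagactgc
NFKBIA, chr14:35404750-35404869, minus strand: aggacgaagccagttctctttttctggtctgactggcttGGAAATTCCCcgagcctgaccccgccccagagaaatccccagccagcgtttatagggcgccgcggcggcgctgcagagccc
NFKB1, chr4:102501239-102501358, plus strand: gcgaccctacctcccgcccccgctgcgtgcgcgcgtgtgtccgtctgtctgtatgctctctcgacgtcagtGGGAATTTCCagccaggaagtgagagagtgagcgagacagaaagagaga
NFKB2, chr10:102394458-102394577, plus strand: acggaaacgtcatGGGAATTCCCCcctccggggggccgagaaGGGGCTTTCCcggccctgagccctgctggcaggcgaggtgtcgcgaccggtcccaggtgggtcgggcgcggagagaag
CXCL1, chr4:73869273-73869392, plus strand: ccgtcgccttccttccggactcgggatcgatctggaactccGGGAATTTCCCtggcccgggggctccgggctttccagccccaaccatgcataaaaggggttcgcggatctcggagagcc
CXCL2, chr4:74099196-74099315, minus strand: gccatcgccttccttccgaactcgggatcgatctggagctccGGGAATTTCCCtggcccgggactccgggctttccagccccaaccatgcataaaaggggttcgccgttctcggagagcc

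The matches lay close to the starts. Counted from the base before the start as -1, the match of NFKB1 ran from -49 to -40, that of CCL20 from -79 to -70, that of NFKBIA from -81 to -72 and the 2 of TNFAIP3 from -67 to -58 and from -55 to -46. CXCL1 and CXCL2 had the same letters in capitals, at -79 to -69 in CXCL1 and at -78 to -68 in CXCL2. Over the 250 bases before each start, 8 of 12 windows and 7 of 8 members held the consensus, all but RELA, against 5.21% of 35114 promoters of the same length. The looser pattern GGGNNNNNCC, which each consensus match also meets, stood in 11 of 12 windows and in 8 of 8 members, against 54.4% of all promoters. A match describes the letters of the window and no binding, and genes whose RNA was higher, lower and near 0 in these cells all carried one.

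Levels differed widely between members. Divided by exon length, CCL20 stood highest, at 534 ± 21.7 CPM per kilobase in Z2, 516 ± 14.2 in Z5 and 482 ± 27.4 in Z9, against 441 ± 20.7 in Empty (SD, n = 3 wells each). Over all 12 wells NFKBIA followed with 36.9 CPM per kilobase, then RELA with 22.7, TNFAIP3 with 13.4, NFKB1 with 12.4, NFKB2 with 7.04 and RELB with 3.00. TNFAIP3 and NFKB1 are neighbours in this order whose spreads overlap (SD 1.63 and 1.03 over the 12 wells), and in Empty alone NFKB1 stood above TNFAIP3 (13.9 and 11.6 CPM per kilobase). CXCL2 lay at 0.0341 and CXCL1 at 0.00942 CPM per kilobase, and CCL2 had 0 counts in all 12 wells. HepG2 thus carried RNA of all 4 subunits and both inhibitors, while 1 of the 4 member chemokines was abundant and 3 were at or near 0. In bulk RNA, fewer cells with a transcript and less of it per cell cannot be told apart, here and in all comparisons that follow.

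**Figure D1:**
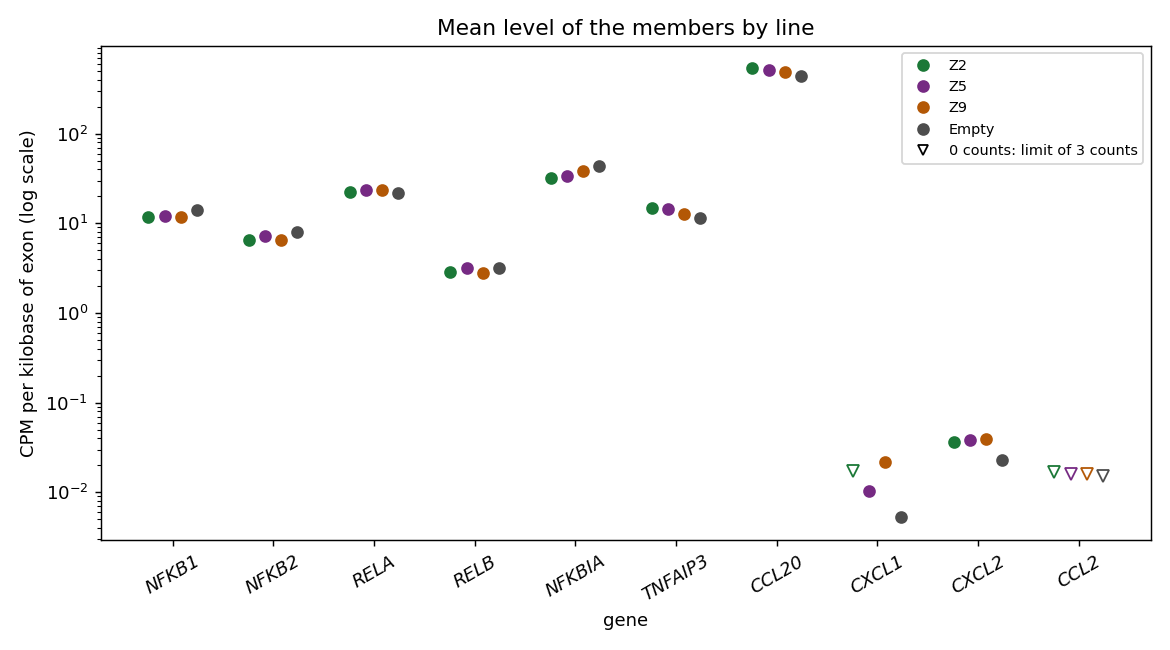
Mean level of the 10 members in CPM per kilobase of exon (log axis) in Z2, Z5, Z9 and Empty, each point the mean of 3 wells; open triangles mark 0 counts and stand at the limit of 3 counts over the 3 wells. CCL20 stands above every other member in all 4 lines, and CXCL1, CXCL2 and CCL2 lie below all the others.

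The question put to the members was whether the 3 labelled lines differ from Empty. Of the 10 members, 7 passed the filter on low counts. For the mean of Z2, Z5 and Z9 against Empty, 5 of these 7 were called (adjusted p under 0.05 over all genes tested): CCL20 and TNFAIP3 rose, and NFKB1, NFKB2 and NFKBIA fell. Over all tested genes the same rule called 25.6%, 13.0% higher and 12.6% lower. In Z2 alone 5 members were called, 2 higher and 3 lower, against 23.9% of all genes, 12.4% higher and 11.5% lower. In Z5 alone 3 were called, 2 higher and 1 lower, against 15.0% of all genes, 8.27% higher and 6.68% lower. In Z9 alone 2 were called, 0 higher and 2 lower, against 19.2% of all genes, 9.66% higher and 9.58% lower; 2 of 7 is near that background. The median log2 fold change of the 7 members for the mean of the lines was -0.11, beside 0.0029 over all tested genes. These comparisons share the 3 Empty wells, so they are not independent of each other. The calls for the mean did not hold with wells summed per line, which leaves 1 Empty unit. The log2 fold changes there were -0.22 for NFKB1, -0.25 for NFKB2, -0.29 for NFKBIA, 0.27 for TNFAIP3 and 0.21 for CCL20. The called fold changes ran from 0.753-fold for NFKBIA in Z2 to 1.27-fold for TNFAIP3 in Z2.

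**Figure D2:**
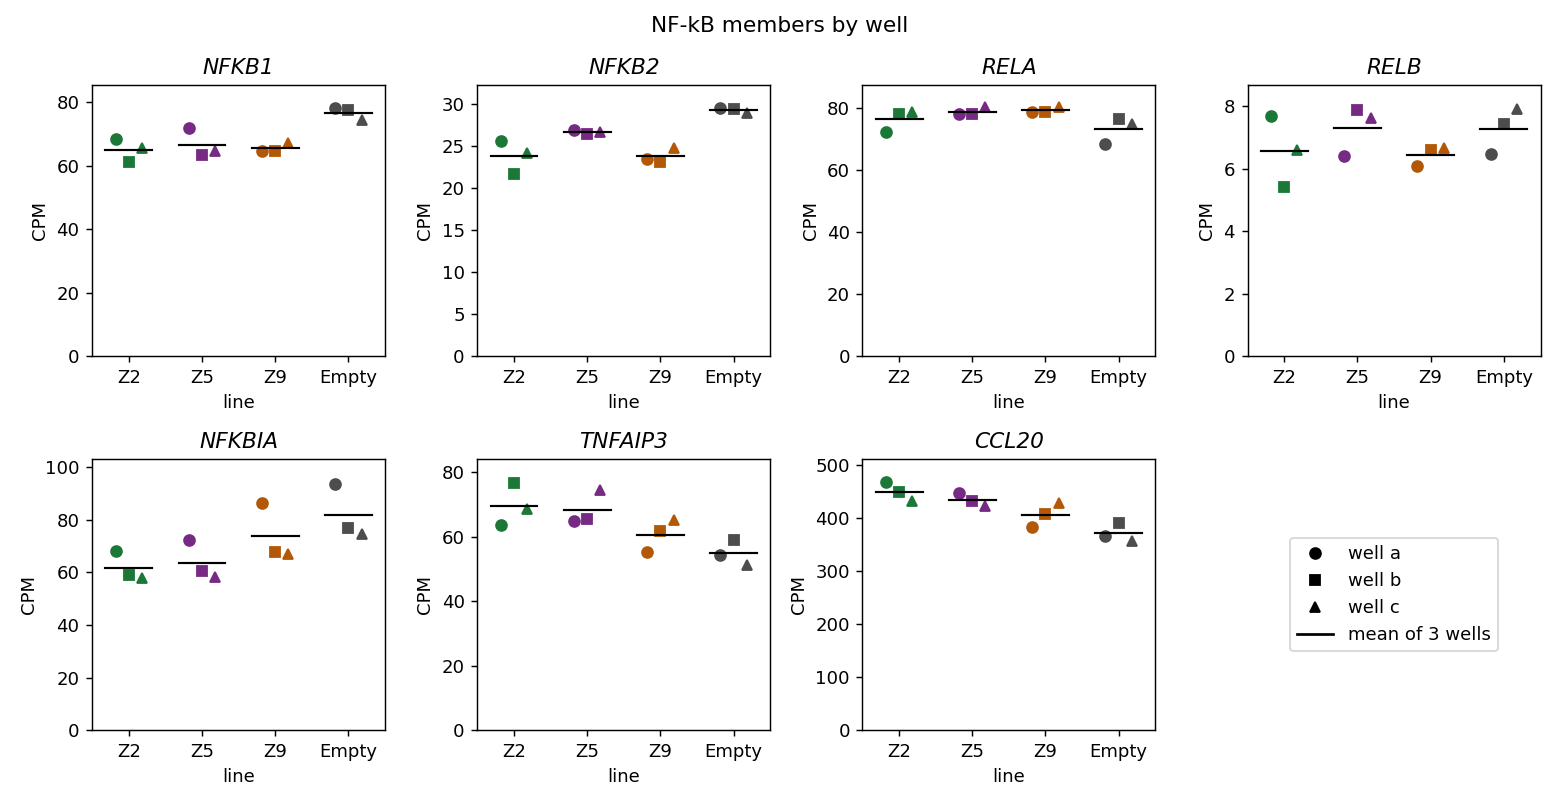
CPM of the 7 tested members in each well of Z2, Z5, Z9 and Empty, with circles for wells a, squares for wells b, triangles for wells c and bars for the mean of 3 wells; each vertical axis starts at 0. NFKB1 and NFKB2 are higher in every Empty well than in any other well, and the a well of NFKBIA is the highest in all 4 lines.

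Among the subunits, NFKB1 encodes p105, the precursor of p50 and itself an I-kappa-B-like inhibitor. NFKB1 had 68.5, 61.2 and 65.6 CPM in wells a, b and c of Z2, 71.8, 63.4 and 64.6 in Z5 and 64.7, 64.6 and 67.3 in Z9, against 78.3, 77.6 and 74.3 CPM in Empty. All 9 labelled wells lay below all 3 Empty wells. Relative to Empty, Z2 stood at a log2 fold change of -0.24, Z5 at -0.20, Z9 at -0.23 and their mean at -0.22 ± 0.046 (SE) (edgeR adjusted p = 0.00629, 0.0222, 0.00953 and 0.00178). NFKB1 was the 1 member called in the same direction in all 3 lines. The call of the mean held with each of the 12 wells left out in turn. It did not hold with wells summed per line. The call in Z5 was lost without Z5 b, Z5 c, Empty a or Empty b (edgeR adjusted p = 0.126, 0.112, 0.0959 and 0.0737).

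NFKB2 encodes p100, which restrains RelB dimers until it is processed to p52 in the non-canonical branch. Its wells a, b and c had 25.7, 21.7 and 24.3 CPM in Z2, 26.9, 26.4 and 26.7 in Z5 and 23.5, 23.2 and 24.8 in Z9, against 29.5, 29.5 and 28.9 CPM in Empty. Here too the 9 labelled wells and the 3 Empty wells did not overlap, and Z5 lay between the other labelled lines and Empty. On the log2 scale NFKB2 changed by -0.29 in Z2, -0.30 in Z9 and -0.24 ± 0.051 (SE) for the mean (edgeR adjusted p = 0.00294, 0.00278 and 0.00190), and the value in Z5, -0.14, did not pass (edgeR adjusted p = 0.156). The calls in Z2, in Z9 and for the mean held with each well left out. That of the mean did not hold with wells summed per line. Of the 7 tested members, 2 had labelled and Empty wells that did not overlap, NFKB1 and NFKB2, against 17.1% of all tested genes.

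RELA and RELB encode the subunits that carry a transactivation domain, p65 of the canonical and RelB of the non-canonical branch. RELA had 72.3, 77.9 and 78.6 CPM in wells a, b and c of Z2, 78.0, 77.9 and 80.2 in Z5 and 78.6, 78.8 and 80.3 in Z9, against 68.3, 76.3 and 74.8 CPM in Empty. Empty a was the lowest of the 12 wells, and Z2 overlapped Empty. The log2 fold change for the mean of the lines was 0.093 ± 0.043 (SE), with a 95% interval of 0.0031 to 0.18, and did not pass (edgeR adjusted p = 0.122). RELB, the lowest of the subunits, had 7.67, 5.42 and 6.59 CPM in Z2, 6.39, 7.87 and 7.63 in Z5 and 6.07, 6.59 and 6.67 in Z9, against 6.47, 7.43 and 7.90 CPM in Empty. The groups overlapped, and the log2 fold change of -0.11 had a 95% interval of -0.32 to 0.10 (edgeR adjusted p = 0.446). Of the 4 subunits, 0 rose and 2 fell for the mean of the lines, against 13.0% higher and 12.6% lower over all tested genes (edgeR). At an unadjusted p under 0.05, 1 was higher and 2 were lower, and by DESeq2 0 were higher and 2 lower. The median of the 4 was -0.17.

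NFKBIA encodes I-kappa-B-alpha, the inhibitor that is resynthesised after NF-kB activation and takes the dimers back out of the nucleus. In wells a, b and c it had 68.0, 58.9 and 57.7 CPM in Z2, 72.3, 60.4 and 58.4 in Z5 and 86.3, 67.8 and 66.95 in Z9, against 93.7, 76.9 and 74.7 CPM in Empty. Well a was the highest of its line in all 4 lines, and Z9 a and the Empty wells overlapped. Well a was likewise the highest in all 4 lines in 574 of the tested genes, 3.75%, and the lowest in all 4 lines in 862, 5.64%. Relative to Empty, NFKBIA changed on the log2 scale by -0.41 in Z2 and -0.31 ± 0.097 (SE) for the mean (edgeR adjusted p = 0.0297 and 0.0372), and the values in Z5 (-0.36) and Z9 (-0.15) did not pass (edgeR adjusted p = 0.0680 and 0.431).

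The NFKBIA call was the least stable of the members' calls when single wells were left out. For the mean of the lines it held without Z2 a, Z5 a, Z9 a or Empty c. It was lost without Empty a, where the log2 fold change was -0.20 (edgeR adjusted p = 0.220), and without Z2 b (0.0941), Z2 c (0.0626), Z5 b (0.0601), Z5 c (0.0548), Z9 b (0.0555), Z9 c (0.0507) or Empty b (0.0553). In Z2 it was lost without Z2 b (0.141), Z2 c (0.0977) or Empty a (0.107), and in Z5 a call appeared without Z5 a (0.0237) or Z9 a (0.0228). With all 4 a wells left out, an alternative added after the values were seen, the mean stayed called and Z5 was called as well (edgeR adjusted p = 0.00162 for Z5). With the well letter as a block, the mean stayed called, and NFKBIA was called in Z5 and Z9 too (edgeR adjusted p = 3.3e-05 and 0.0262).

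TNFAIP3 encodes A20, a ubiquitin-editing enzyme that shuts off signalling to the I-kappa-B kinase complex. Its wells a, b and c had 63.7, 76.6 and 68.4 CPM in Z2, 64.8, 65.3 and 74.4 in Z5 and 55.2, 61.6 and 64.97 in Z9, against 54.2, 59.0 and 51.1 CPM in Empty. Z2 and Z5 lay above all Empty wells, and Z9 a overlapped them. On the log2 scale TNFAIP3 changed by 0.35 in Z2, 0.32 in Z5 and 0.27 ± 0.066 (SE) for the mean (edgeR adjusted p = 0.00517, 0.0132 and 0.00654), and 0.15 in Z9 did not pass (edgeR adjusted p = 0.213). The mean lost its call without Empty c (0.0521), and Z5 without Z5 c, Empty a or Empty c (edgeR adjusted p = 0.0858, 0.0546 and 0.0584). The 2 feedback inhibitors thus moved in opposite directions, NFKBIA down and TNFAIP3 up, and both carry kappa-B matches in the printed promoters.

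CCL20 encodes the chemokine MIP-3-alpha, which attracts lymphocytes and dendritic cells that bear the receptor CCR6. In wells a, b and c it had 469, 449 and 432 CPM in Z2, 447, 432 and 423 in Z5 and 383, 407 and 429 in Z9, against 367, 390.3 and 356 CPM in Empty. Z2 and Z5 lay above all Empty wells, and Z9 a lay within the Empty range. The log2 fold change was 0.28 in Z2, 0.23 in Z5 and 0.21 ± 0.047 (SE) for the mean (edgeR adjusted p = 0.00206, 0.0119 and 0.00297), and 0.13 in Z9 did not pass (edgeR adjusted p = 0.117). The calls of Z2 and of the mean held with each well left out. That of the mean did not hold with wells summed per line. Z5 lost its call without Empty a (0.0582) or Empty c (edgeR adjusted p = 0.0598).

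**Figure D3:**
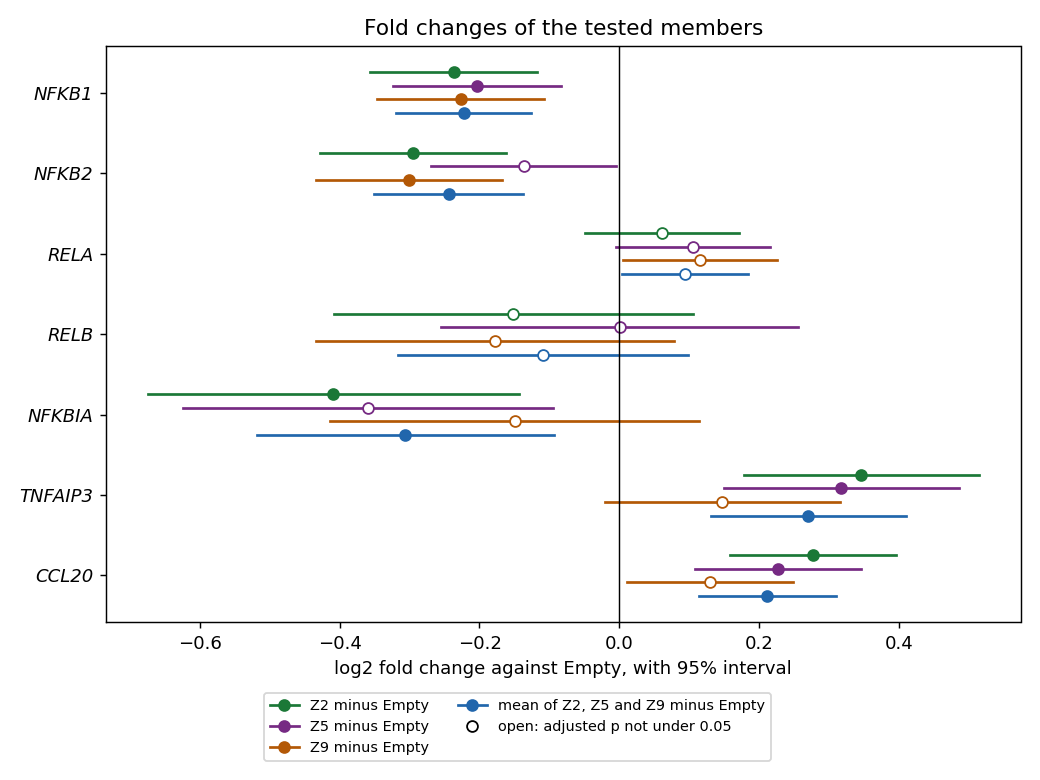
Log2 fold change of the 7 tested members against Empty in Z2, Z5, Z9 and for the mean of the 3 lines, with 95% intervals; filled points passed an adjusted p under 0.05 and open points did not. NFKB1, NFKB2 and NFKBIA lie below 0 and TNFAIP3 and CCL20 above 0 in all 3 lines, with the values of Z9 nearest to 0 for NFKBIA, TNFAIP3 and CCL20.

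The 3 remaining chemokines were too low to test. CXCL1, a neutrophil attractant, had 0, 2 and 4 counts over the 3 wells of Z2, Z5 and Z9, against 1 count in Empty. The ratio of labelled to Empty wells was 2.12, with an exact 95% counting interval of 0.257 to 97.4. CXCL2, its close relative, had 7, 8 and 8 counts in Z2, Z5 and Z9, against 5 in Empty, a ratio of 1.62 with an interval of 0.603 to 5.46. CCL2, the monocyte attractant MCP-1, had 0 counts in all 12 wells, which allows up to 0.0045 CPM over all libraries. Intervals and limits cover counting error only, and a difference between lines was not detectable in these 3 genes at this depth. Of 100-base stretches of the members' GENCODE release 29 transcripts, 0 occurred in a transcript of another gene, CXCL1 and CXCL2 included. RELA was the 1 member whose exons overlap another gene's, by 9 bases of AP001362.2.

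CXCL1, CXCL2 and NFKB1 lie on the same chromosome. On GRCh38 (GENCODE release 29), CXCL1 spans chr4:73869393-73871242 on the plus strand and CXCL2 chr4:74097035-74099293 on the minus strand, with NFKB1 farther along at chr4:102501329-102617302. CCL20 spans chr2:227805739-227817564, TNFAIP3 chr6:137867188-137883312, NFKBIA chr14:35401511-35404749 and NFKB2 chr10:102394110-102402529. All 10 members are annotated as protein-coding.

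The labelled lines were also compared with each other. Of the 7 tested members, 0 were called between Z5 and Z2, between Z9 and Z2 or between Z9 and Z5 (edgeR), against 0.00654%, 5.17% and 1.52% of all genes. At an unadjusted p under 0.05 there were 1, 2 and 2 members, and by DESeq2 0 in each pair. CCL20 was -0.15 in Z9 relative to Z2 (95% interval -0.27 to -0.028, edgeR adjusted p = 0.123), and TNFAIP3 was -0.20 (95% interval -0.37 to -0.031, edgeR adjusted p = 0.139). NFKBIA was 0.26 in Z9 relative to Z2, with an interval of -0.0061 to 0.52 (edgeR adjusted p = 0.218). NFKB2 was 0.16 in Z5 relative to Z2 (95% interval 0.025 to 0.29, edgeR adjusted p = 0.449). In Z9 relative to Z5 NFKB2 was -0.16 (95% interval -0.30 to -0.031, edgeR adjusted p = 0.227). Its wells did not overlap in either of these pairs. So in the fit with 1 mean per line and no block, members called in Z2 and not in Z9 were not shown to differ between those lines. With the well letter as a block, NFKBIA was called higher in Z9 than in Z2 and than in Z5 (edgeR adjusted p = 0.00409 and 0.0210). Without Z2 a, TNFAIP3 was called between Z9 and Z2 (edgeR adjusted p = 0.0418), and without all 4 a wells NFKBIA was (0.04997).

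Around the members, 6 other genes of the Rel and I-kappa-B families were tested. For the mean of the lines 0 rose and 4 fell, against 13.0% higher and 12.6% lower over all genes (edgeR; at an unadjusted p under 0.05, 1 higher and 4 lower, and by DESeq2 0 and 4), with a median of -0.20 against 0.0029. NFKBIB (0.041) and NFKBIZ (0.16) did not pass (edgeR adjusted p = 0.745 and 0.0527), and NFKBIZ was called higher in Z2 (0.25, edgeR adjusted p = 0.0162). In the list 1 gene was called higher without Z2 b or Z2 c and with at least 1 CPM in 3 libraries, and with wells summed per line 0 fell. BCL3, a nuclear I-kappa-B protein that works with p50 and p52, had 16.8, 16.3 and 16.2 CPM in wells a, b and c of Z2, 16.8, 15.0 and 16.2 in Z5 and 18.8, 18.1 and 20.2 in Z9, against 22.2, 20.9 and 19.4 CPM in Empty. Z9 c overlapped Empty, and the other labelled wells lay below it. Its log2 fold change of -0.28 ± 0.057 (SE, edgeR adjusted p = 0.00143) held with each well left out. REL (-0.22), NFKBID (-0.52) and NFKBIE (-0.18) also fell (edgeR adjusted p = 0.0273, 0.0344 and 0.0417).

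With wells summed per line BCL3, REL, NFKBID and NFKBIE were not called (edgeR adjusted p = 0.160, 0.258, 0.106 and 0.312). The last 3 of these calls were also lost when single wells were left out. REL, the gene of c-Rel, lost its call without Z9 b, Empty a or Empty c (edgeR adjusted p = 0.0515, 0.173 and 0.0587). NFKBID lost it without Z2 c, Z5 b, Z9 b, Z9 c, Empty a or Empty b (0.0532, 0.0619, 0.0607, 0.0531, 0.164 and 0.188). NFKBIE lost it without Z2 a, Z5 a, Z5 c, Z9 a, Z9 b, Z9 c, Empty b or Empty c (edgeR adjusted p between 0.0535 and 0.195). The number of the 6 genes that fell was therefore 1 to 4 over the 12 omissions.

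Upstream of NF-kB, 6 of the 38 kinases and adaptors tested were called, against 25.6% of all genes. Of these 3 rose and 3 fell, and the median of the 38 was 0.017. NOD2, an intracellular sensor of bacterial peptidoglycan, rose at a low level, with 17 to 35 counts per labelled well and 5 to 14 per Empty well (log2 fold change 1.52 ± 0.33, SE, edgeR adjusted p = 0.00296). IRAK4 (0.30), the kinase next to the adaptor MYD88, and RIPK2 (0.16), the partner of NOD2, rose too, and TRAF2 (-0.22), an adaptor of TNF receptors, fell (edgeR adjusted p = 0.00493, 0.0167 and 0.00789). IRAK4 lost its call without Empty b (0.0520), TRAF2 without Empty a (0.0534) or Empty b (0.0521), and RIPK2 without Empty a (0.0744), Empty b (0.0670) or Empty c (edgeR adjusted p = 0.0607). Over the omissions 0 (without Empty a or Empty b) to 5 (without Z2 b) of the 38 fell and 1 (without Empty b) to 3 rose. With wells summed per line IRAK4, TRAF2 and RIPK2 were not called (edgeR adjusted p = 0.103, 0.174 and 0.393), and 1 rose and 0 fell. MALT1, a protease of the CARD-BCL10-MALT1 complex, was called higher in Z2 (0.26) and lower in Z9 (-0.32; edgeR adjusted p = 0.0231 and 0.00970), the first of these lost without Z2 b, Empty a or Empty c (0.0678, 0.104 and 0.0556) or when Z2 and Empty were fitted alone (edgeR adjusted p = 0.0799).

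Among other restraints on the pathway, 0 of 14 tested genes rose and 2 fell, against 12.6% of all genes lower and 25.6% called in either direction (edgeR; 2 and 2 at an unadjusted p under 0.05, 0 and 2 by DESeq2), with a median of -0.035. PDLIM2, a nuclear ubiquitin ligase that targets p65 for degradation, fell in every labelled line: 36.4, 37.6 and 37.1 CPM in wells a, b and c of Z2, 38.4, 38.1 and 43.2 in Z5 and 31.1, 33.3 and 33.4 in Z9, against 49.1, 51.5 and 48.0 CPM in Empty. No labelled well reached an Empty well (log2 fold change -0.45 ± 0.047, SE, edgeR adjusted p = 2e-06). OTUD7B, a deubiquitinase of the non-canonical branch, fell (-0.20, edgeR adjusted p = 0.0101), a call lost without Empty b (0.0511) and with wells summed per line (edgeR adjusted p = 0.237). CYLD (0.13) and RNF11 (0.096) did not pass (edgeR adjusted p = 0.104 and 0.125).

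The receptors and ligands that feed the pathway showed single changes. Of 29 listed genes 19 were tested, 3 rose and 2 fell, with a median of -0.024. These 5 of 19 are near the 25.6% called over all genes. TNFSF10, the ligand TRAIL, rose 0.58, TNFRSF11A, the receptor RANK, 0.33 and IL1R1, the interleukin-1 receptor, 0.26, while IL1RAP, the co-receptor of IL1R1, had a log2 fold change of -0.32 and fell (edgeR adjusted p = 0.0003, 0.00392, 0.00319 and 0.00035). With wells summed per line IL1R1 and TNFRSF11A were not called (edgeR adjusted p = 0.181 and 0.138). Without Empty a or Empty b, 1 gene fell. The inflammatory cytokines themselves were near 0: TNF had at most 2 counts in a well and IL1B at most 10.

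Among the other target genes some rose and some fell. Of 28 listed genes 19 were tested, 4 rose and 3 fell, with a median of 0.022, against 13.0% higher and 12.6% lower over all genes. Without Empty a, 2 rose and 3 fell, without Empty b, 3 and 2, without Empty c, 4 and 2, and with wells summed per line, 2 and 1. The complement genes C3 (0.48) and CFB (0.41) rose, with no overlap of labelled and Empty wells. LIF (-0.31), a cytokine of the interleukin-6 family, and IER3 (-0.46), an immediate early survival gene, fell (edgeR adjusted p = 0.00049 and 0.00311), and LIF was not called with wells summed per line (0.0537). IER3 had 304, 316 and 251 CPM in wells a, b and c of Z2, 336, 266 and 293 in Z5 and 338, 354 and 387 in Z9, against 469, 469 and 360.3 CPM in Empty, so that Empty c overlapped Z9. IL6 and PTGS2 had 0 counts in all wells, and SAA1 and SAA2, acute-phase genes, had at most 3.

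**Figure D4:**
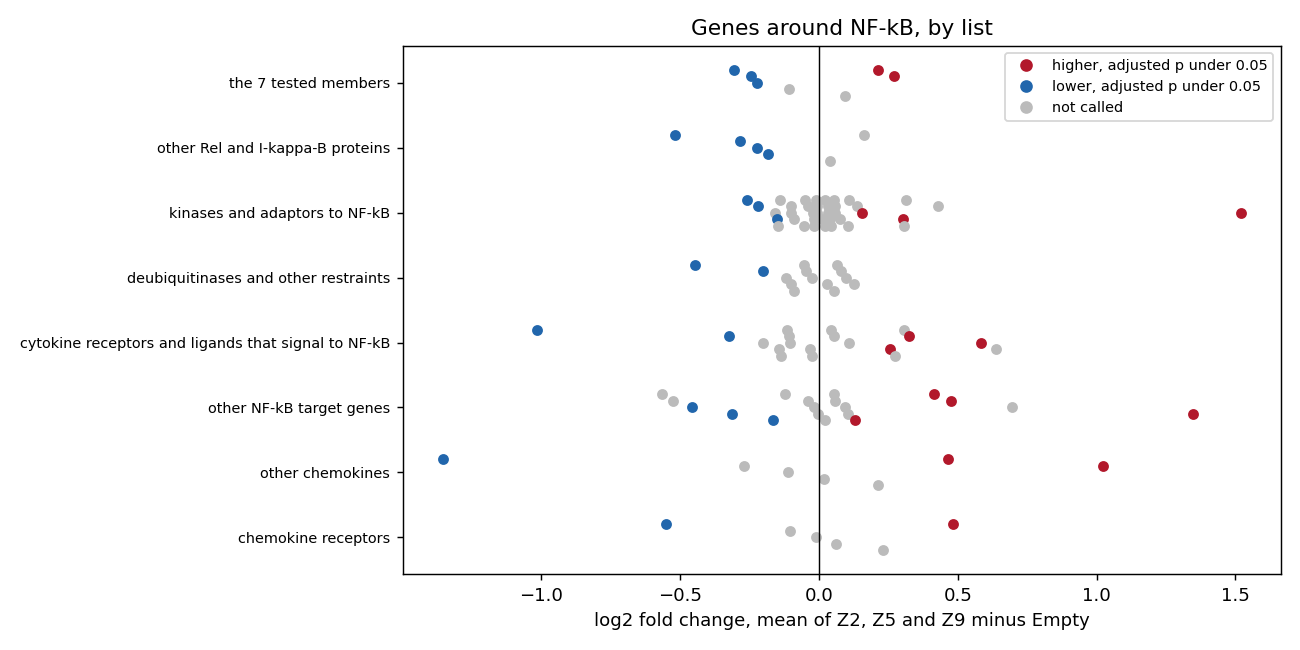
Log2 fold change of the mean of Z2, Z5 and Z9 against Empty for each tested gene (1 point a gene), by list; red genes rose and blue genes fell at an adjusted p under 0.05, and grey genes were not called. The 4 other Rel and I-kappa-B genes that were called all lie below 0, and the 6 called kinases and adaptors lie on both sides of it.

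Of the chemokine family, 8 of 40 listed genes were high enough to test, CCL20 and 7 others. Of the 7, 2 rose and 1 fell, against 25.6% of all genes called. Of the 29 others that were not tested, 12 had 0 counts in every well and none had more than 9 in a well. CXCL16, a transmembrane chemokine that also serves as a scavenger receptor, had 226, 244 and 243 CPM in wells a, b and c of Z2, 204, 206 and 212 in Z5 and 253, 249.9 and 249 in Z9, against 165, 169 and 169 CPM in Empty. All labelled wells lay above all Empty wells, and Z9 stood above Z5 (log2 fold change for the mean 0.47 ± 0.040, SE, edgeR adjusted p = 1.9e-07). CCL16, a liver-expressed chemokine, rose at a low level, 2.87 CPM on average in the labelled wells and 1.39 CPM in Empty (1.02 ± 0.18, SE, edgeR adjusted p = 0.0005). CCL26, or eotaxin-3, with 1 to 14 counts per labelled well and 6 to 21 per Empty well, was called lower (-1.36, edgeR adjusted p = 0.0435). Its mean was 0.0379 CPM in Z2, 0.0766 in Z5 and 0.211 in Z9, against 0.232 CPM in Empty, and 1 line, Z2, was called alone (edgeR adjusted p = 0.0176). This Z2 call rests on 1 to 3 counts per Z2 well. It did not hold by DESeq2, without Z2 c, without Empty a or without all 4 a wells (edgeR adjusted p = 0.0692, 0.114 and 0.119 for the last 3).

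The CCL26 call for the mean was lost by DESeq2 (0.0557) and without Z2 c, Z5 a, Z5 b, Z9 b, Empty a or Empty b (edgeR adjusted p = 0.0776, 0.0605, 0.0741, 0.0662, 0.437 and 0.0781), with a log2 fold change of -0.69 without Empty a. With wells summed per line it was not called either (edgeR adjusted p = 0.442). XCL1 (0.21) did not pass (edgeR adjusted p = 0.213). The 2 chemokines that rose beside CCL20 held their calls of the mean with each well left out. In Z9 alone, 2 of the 7 were called higher and 1, CXCL8, lower, against 9.66% and 9.58% of all genes (edgeR). Between labelled lines, 0 of the 7 were called higher and 1 lower in Z9 than in Z2. In Z9 relative to Z5, 1 was called higher and 1 lower. Over all genes 5.17% and 1.52% were called in these 2 pairs, either direction (edgeR).

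CCR6, the receptor of CCL20, was itself expressed in HepG2 and fell in every labelled line. CCL20 was called higher in Z2, in Z5 and for the mean, and not in Z9. Between Z9 and Z2 neither gene passed without a block (edgeR adjusted p = 0.123 for CCL20 and 0.104 for CCR6, and 0.0210 for CCR6 without Z2 a). Between Z9 and Z5 CCL20 did not pass (0.453), and CCR6 did (0.0359), a call lost when single wells were left out. CCR6 had 28.3, 32.5 and 33.1 CPM in wells a, b and c of Z2, 31.6, 36.0 and 34.2 in Z5 and 24.6, 29.2 and 27.3 in Z9, against 42.8, 45.1 and 46.5 CPM in Empty. No labelled well reached an Empty well. The log2 fold change was -0.52 in Z2, -0.40 in Z5, -0.73 in Z9 and -0.55 ± 0.059 (SE) for the mean (edgeR adjusted p = 9.9e-05, 0.0014, 2.8e-06 and 2.8e-06), and these calls held with each well left out. Of 22 listed chemokine receptors 6 were tested, 1 rose and 1 fell, against 25.6% of all genes called. The riser was ACKR2 (0.48, edgeR adjusted p = 0.0254), a decoy receptor that degrades inflammatory chemokines, which lost its call without Empty a (0.0653), Empty b (0.0584) or Empty c (0.135) and with wells summed per line (edgeR adjusted p = 0.191). CCR7 (0.23) and ACKR4 (-0.10) did not pass (edgeR adjusted p = 0.412 and 0.862).

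**Figure D5:**
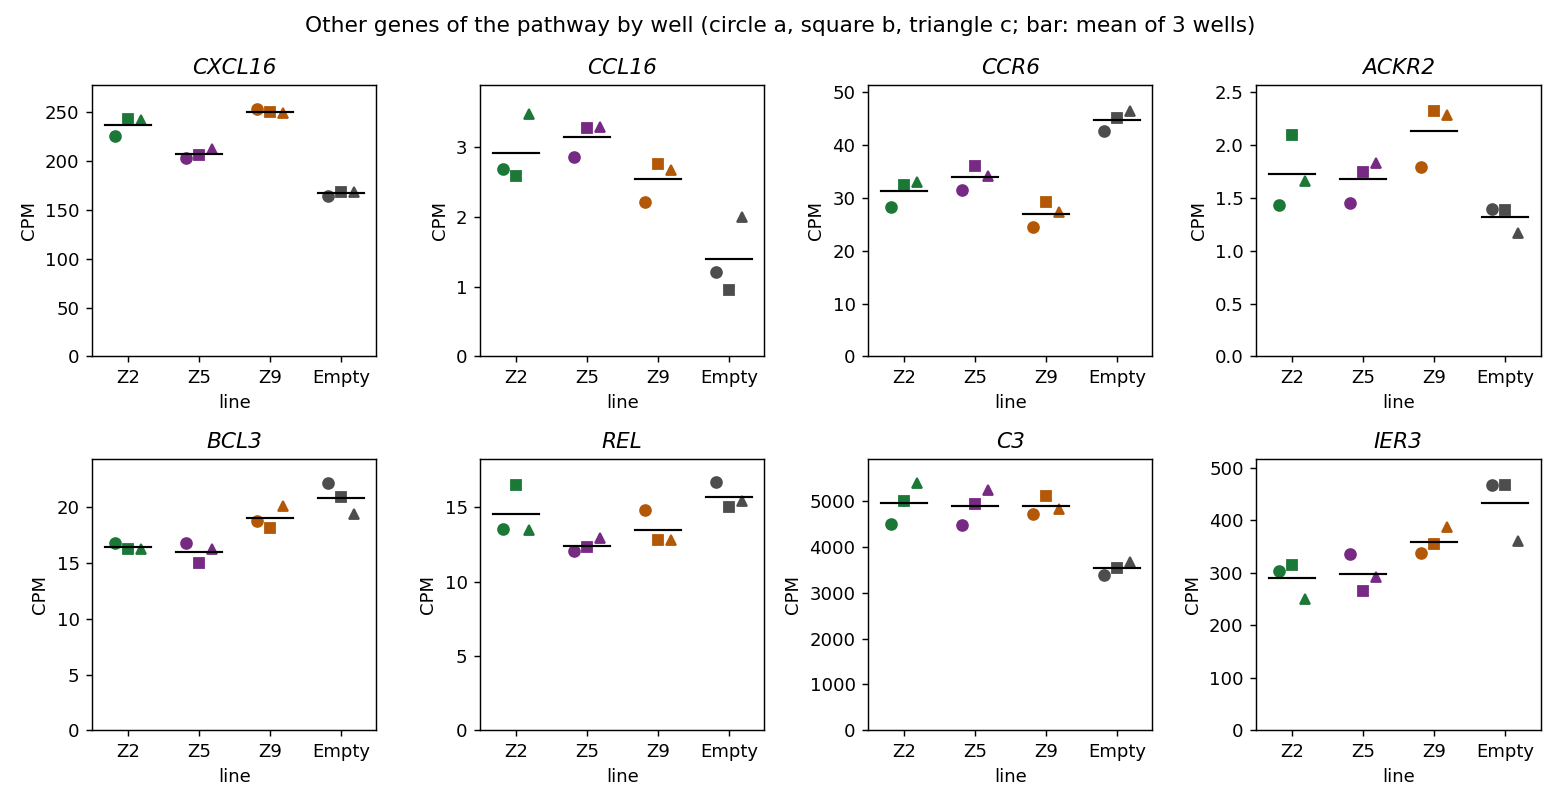
CPM of 8 other pathway genes in each well of Z2, Z5, Z9 and Empty, with the mean of 3 wells as a bar and vertical axes from 0; the 8 were picked for display after their values were seen. CXCL16 and C3 are higher and CCR6 lower in every labelled well than in any Empty well.

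Genes whose log2 CPM followed the called members most closely over the 12 libraries were picked by Pearson's r among all tested genes, as a description. The wells of a line share its history, so the 12 points are not independent. NFKB1 was followed by PSMC3 (r = 0.973), IFI30 (0.967) and AUNIP (0.965). NFKB2 was followed by TTC7A (r = 0.971), EBP (0.969) and SDC1 (0.965). NFKBIA, with its high a wells, was followed by GATA4 (r = 0.960), ZNF124 (0.959) and MED1 (0.958). TNFAIP3 was followed by CCND1, which encodes cyclin D1 (r = 0.985), KIAA1161 (0.969) and RNF103 (0.958). CCL20 had the weakest neighbours, BEND5 (r = 0.923), RASSF8 (0.912) and NPAS1 (0.903). These 3 were low, at 0.297, 4.95 and 9.36 CPM on average over the 12 libraries.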

How the data were processed

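RNA-seq counts of 12 HepG2 wells were compared. The authors deposited raw whole-number counts for each gene symbol. Alignment with STAR, counting with featureCounts and the hg38 build are named in the submitters' processing notes; of their versions, annotation and strand setting nothing is stated (not given in the sources used here), so antisense genes may share reads. A robust quasi-likelihood model with 1 mean per line was fitted to all 12 libraries in edgeR 4.0.16 (R 4.3.3), after filterByExpr and TMM scaling, leaving 8 residual degrees of freedom. Benjamini and Hochberg's adjustment ran over 15289 genes in each comparison. The SE was taken from the fold change and its F statistic. CPM uses TMM-scaled library sizes. No well was a repeat of another: chi-square per degree of freedom within lines was 6.01 to 43.0. Exon lengths are from GENCODE release 29 and promoters from RefSeq GRCh38.p14. The test was checked on simulated counts.

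The members and the 10 other lists were chosen with earlier results of these data known. Named genes are the members, up to 4 genes per list with the smallest adjusted p for the mean of the lines, list genes called in opposite directions in 2 lines, the 3 genes most correlated with each called member, and ZHX3. TNF, IL1B, IL6, PTGS2, SAA1, SAA2, NFKBIB, NFKBIZ, CXCL8, LYZ, ACTA2, PECAM1 and the cell type markers at or near 0 were named after their counts were seen. Alternatives were DESeq2 1.42.0 (size factors, Wald test), no filter beyond 1 count, at least 1 CPM in 3 libraries, the well letter as a block, fits of the compared lines alone, wells summed per line, each well left out, and, added after the data were seen, all a wells left out.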

Additional observations from a re-analysis of the deposited data

Results flagged for a closer look

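Some genes around the members differed between labelled lines by the test of that difference itself. MALT1, called higher in Z2 and lower in Z9 against Empty, had a log2 difference of -0.59 for Z9 minus Z2 (edgeR adjusted p = 0.00168). IL1R1 was lower in Z9 than in Z2 by the same test (-0.28, edgeR adjusted p = 0.0305), a call lost without Z2 b, Z9 a, Z9 b or Z9 c (0.0732, 0.0737, 0.124 and 0.0773). CCR6, the receptor of CCL20, was lower in Z9 than in Z5 (-0.33, edgeR adjusted p = 0.0359), and this was lost without Z5 b, Z5 c, Z9 a, Z9 c, Empty b or Empty c (0.221, 0.160, 0.186, 0.114, 0.0570 and 0.0503). PDLIM2 was lower in Z9 than in Z5 (-0.29, edgeR adjusted p = 0.0196), lost without Z5 b, Z5 c, Z9 a, Z9 b or Z9 c (0.0555, 0.145, 0.106, 0.0607 and 0.0587). CXCL16 was higher in Z9 than in Z5 (0.27, edgeR adjusted p = 0.00744), lost without Z5 b (0.0625). FGB, a fibrinogen chain gene in the hepatocyte marker list, was higher in Z9 than in Z2 (0.36, edgeR adjusted p = 0.00285) and than in Z5 (0.32, edgeR adjusted p = 0.00585, and 0.0676 without Z5 c). The causes were not tested.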

How the results depend on the processing

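No member's log2 fold change reversed its direction as a call under any alternative run. With wells summed per line, which leaves the 3 labelled lines as units against 1 Empty unit, 0 of the 7 members were called for the mean of the lines in place of 5 (edgeR adjusted p = 0.105 for NFKB1, 0.159 for NFKB2, 0.106 for NFKBIA, 0.111 for TNFAIP3 and 0.198 for CCL20; all 5 at an unadjusted p under 0.05), and 1016 genes in place of 3911. With 1 well left out, the number of members called ran from 4 to 5 for the mean and for Z2, from 0 to 4 for Z5 and from 0 to 1 for Z9 minus Z2. Z5 fell to 0 without Empty a and to 1 without Z5 c or Empty c. With all a wells left out, 1 member was called in Z9 (NFKB1 missed, adjusted p = 0.0508) and 1 for Z9 minus Z2 (NFKBIA, 0.04997), CCL20 in Z5 missed (0.0744) and RELB in Z2 was called (-0.35, 0.0491). With no filter beyond 1 count, NFKBIA missed for the mean (0.0862) and in Z2 (0.0716). By the DESeq2 Wald test NFKBIA was called in Z5 (0.0120). The labels do not state that the well letters pair the samples. Correlations of same-letter deviations ran from -0.10 to 0.17 with a median of 0.065. Those of different letters ran from -0.15 to 0.15 with a median of -0.045, and 6 of 12 wells correlated best with their own letter. An effect shared by wells of 1 letter was not tested. With the letter as a replicate block, 1 member, NFKBIA, was called for Z9 minus Z2 (0.00409) and 1 for Z9 minus Z5 (0.0210), NFKBIA passed in Z5 and Z9 as well, the leukocyte marker CD68 passed for the mean (0.00173), and 1 of the 6 other Rel and I-kappa-B genes was called higher. Counts over all genes moved by more than 1.5 times in these cases: for the mean 2107 without Empty a; for Z2 2130 without Empty a and 2390 in the pair alone, in place of 3654; for Z5 1087 to 1146 without Z5 b, Z5 c or Empty a, in place of 2286; for Z9 1708 to 1873 without the a wells, Z9 b or Empty a, in place of 2941. Between labelled lines, Z5 minus Z2 had 1 and ran from 0 to 153, Z9 minus Z2 had 790 and ran from 32 to 2399, and Z9 minus Z5 had 232 and ran from 37 to 664. DESeq2 size factors moved the median of all genes by less than 0.005. The causes were not tested. The depth limits CXCL1, CXCL2 and CCL2, which could not be tested.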
